A study of Bos taurus with 18 samples.

Results

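The transcripts described here are those of 6 inflammatory cytokine genes in bovine blood leukocytes: IL1B (ENSBTAG00000001321), TNF (ENSBTAG00000025471), IL6 (ENSBTAG00000014921), CXCL8 (ENSBTAG00000019716), IL10 (ENSBTAG00000006685) and IFNG (ENSBTAG00000012529). They were picked by identifier as well-known mediators of inflammation, with earlier results of these data known, and all 6 rows were found among the 30162 features of the deposited count table. Leukocyte RNA was sequenced from 18 female cattle, all labelled as under heat stress: 6 Red Angus (a Bos taurus beef breed), 6 Droughtmaster (a composite breed with zebu ancestry that was developed for the tropics) and 6 F1 animals labelled Red Angus x Droughtmaster. Per the labels' protocols the animals were healthy, blood was taken from the tail vein into EDTA, and the white cell layer was collected by centrifugation. The labels give no age, temperature, batch or parentage, and no animal outside heat stress was analysed here, so every comparison is between breeds under heat.

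Inflammatory cytokines are small secreted proteins through which white blood cells start, spread and end an inflammatory response. Most of their genes are nearly silent in resting blood cells and are switched on within a short time by NF-kB and related transcription factors, and their messenger RNAs are short-lived. IL1B and TNF are early alarm signals made mainly by monocytes and macrophages, IL6 drives fever and the acute phase response of the liver, and CXCL8 (interleukin 8) draws neutrophils to a site of injury. IL10 acts in the other direction and restrains the production of the others, while IFNG is the activating signal that T cells and natural killer cells send to macrophages.

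The libraries held 11639027 to 24117615 counts and 15507 to 19605 features with at least 1 count. In Droughtmaster replicate 3 a single feature, ENSBTAG00000037644, held 44.6% of the counts. The fold changes of the 4 tested genes between Droughtmaster and each other group are therefore also given without that library. So are the correlations of IL1B with TNF and IL10. Values are CPM (counts scaled to a common library size) after correction by the trimmed mean of M values (TMM). In bulk leukocyte RNA, fewer cells of a type and less RNA per cell cannot be told apart. The deposited identifiers matched no entry of the gene name table used here, so cell type markers and the wider inflammatory pathway were not analysed, and the leukocyte label was not checked against marker genes.

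IL1B, which encodes interleukin 1 beta, was higher in Droughtmaster leukocytes than in those of both other groups, and was the only 1 of the 4 cytokine genes tested to pass edgeR's test in either comparison. DESeq2's Wald test also called CXCL8 and IL10 in both, and TNF between F1 and Droughtmaster. It called more of the 14446 features as a whole: 1037 against Red Angus and 622 against the F1, where edgeR called 376 and 171. The Red Angus animals, replicates 1 to 6, measured 16.3, 46.8, 21.0, 29.2, 27.5 and 11.2 CPM. The F1 animals measured 3.02, 30.7, 10.1, 23.7, 36.4 and 15.0 CPM. The Droughtmaster animals measured 44.4, 467, 185, 21.6, 119 and 565 CPM. Droughtmaster replicates 2, 3, 5 and 6 lay above all 12 animals of the other groups, replicate 1 lay just under the highest Red Angus animal, and replicate 4 lay inside the range of both other groups. The mean level was 25.3 ± 12.5 CPM for Red Angus, 19.8 ± 12.7 for the F1 and 234 ± 228 for Droughtmaster (SD over 6 animals).

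Against Red Angus, the log2 fold change of IL1B was 3.21 ± 0.691 (SE), or 9.22-fold (edgeR's quasi-likelihood F test, p adjusted by Benjamini and Hochberg's method over 14446 features; adjusted p = 0.0202), and it was the feature with the 110th smallest p. Of all features tested, 2.60% passed in this comparison and 1.50% passed as higher in Droughtmaster. This background rests on 376 features, a count that ranged from 143 without Droughtmaster replicate 6 to 1407 without Red Angus replicate 5. The fitted fold compares average abundances and is weighted towards the highest animals. Between the means of log2 CPM the difference was 2.53. The call was lost without Droughtmaster replicate 6 (log2 fold change 2.72, adjusted p = 0.0525), without Red Angus replicate 1 (3.11, adjusted p = 0.0509) and when the F1 libraries were left out of the model (3.21, adjusted p = 0.0542). Without Droughtmaster replicate 3 it was 3.34 (adjusted p = 0.0323).

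The F1 animals were lower in IL1B than Droughtmaster by a log2 fold change of -3.56 ± 0.702 (edgeR adjusted p = 0.0156), where 1.18% of all features passed and 0.879% passed as lower in the F1. That background of 171 features ranged from 65 without F1 replicate 1 to 335 without Droughtmaster replicate 1. Without each animal in turn this call passed in all 18 fits, with adjusted p between 0.00559 and 0.0455 and log2 fold changes between -3.80 and -3.08. Without Droughtmaster replicate 3 the value was -3.66 (adjusted p = 0.0249). Both comparisons use the same Droughtmaster libraries.

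**Figure D1:**
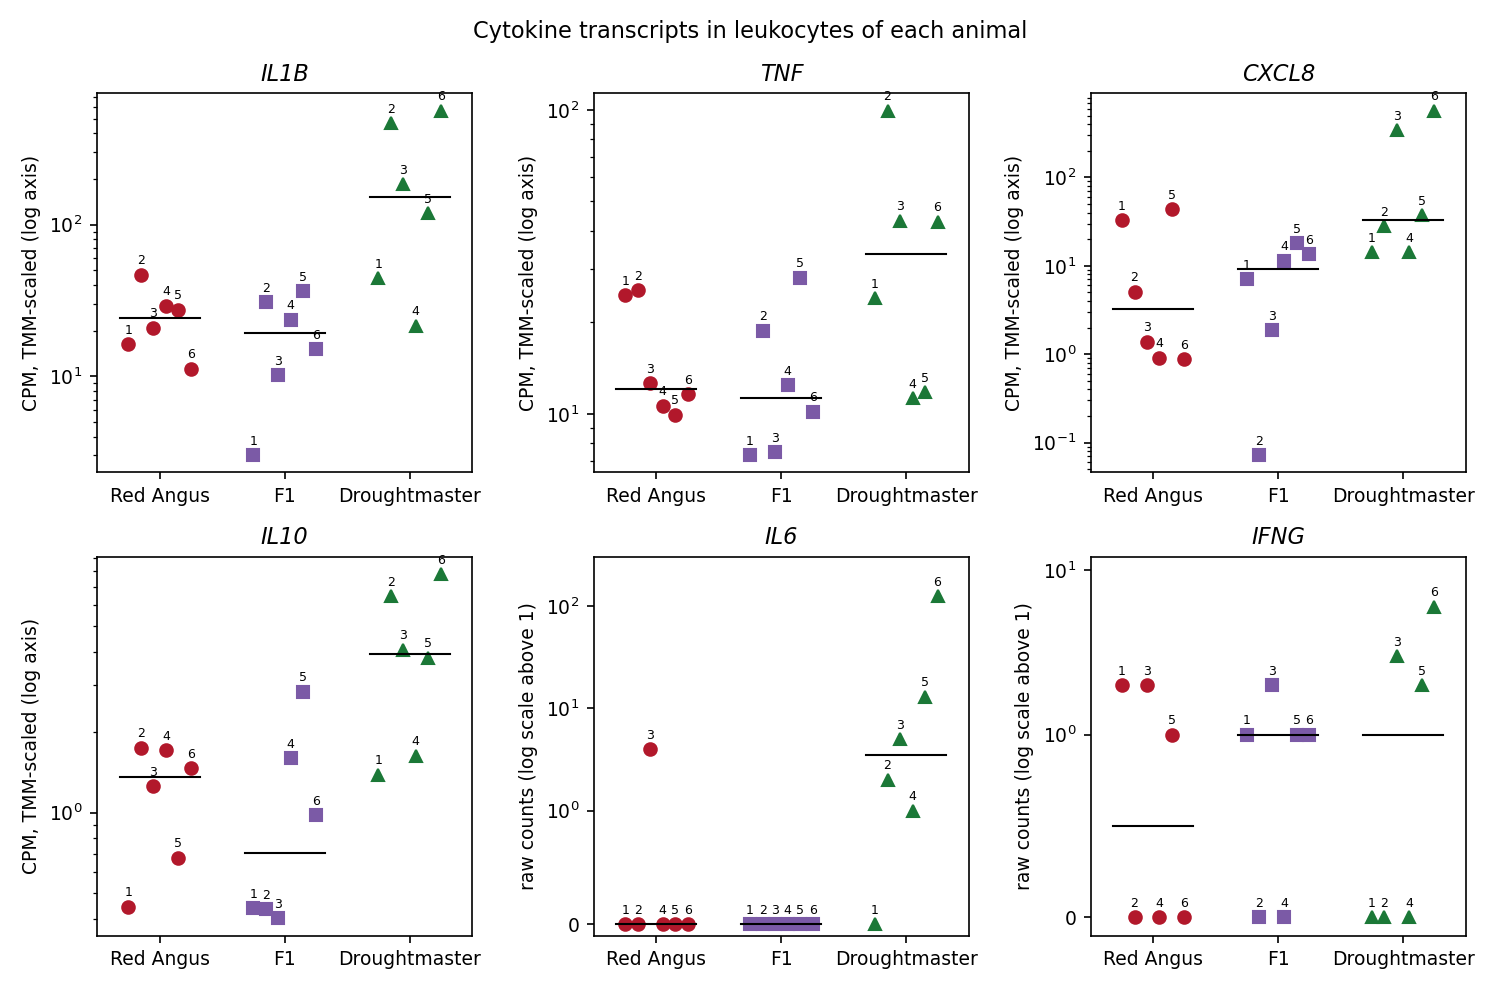
Level of each cytokine transcript in every animal, by breed, with replicate numbers beside the points and a horizontal line at the median of 6 animals. IL1B, TNF, CXCL8 and IL10 are in TMM-scaled CPM on a log axis; IL6 and IFNG are raw counts on an axis that is linear up to 1 and logarithmic above. Droughtmaster replicates 2, 3, 5 and 6 stand above all Red Angus and F1 animals for IL1B and IL10.

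TNF, which encodes tumour necrosis factor, showed the same order of means as IL1B but with smaller differences that did not pass. It measured 24.5, 25.5, 12.6, 10.6, 9.93 and 11.6 CPM in Red Angus replicates 1 to 6. In the F1 it measured 7.32, 18.7, 7.47, 12.4, 28.0 and 10.2 CPM. In Droughtmaster it measured 24.0, 99.4, 43.2, 11.2, 11.8 and 42.9 CPM. Droughtmaster replicates 2, 3 and 6 were the 3 highest of the 18 animals, and Droughtmaster replicates 4 and 5 lay near the Red Angus median of 12.1 CPM, so the groups overlapped. The log2 fold change was 1.29 ± 0.486 against Red Angus (edgeR adjusted p = 0.141) and -1.47 ± 0.488 for F1 against Droughtmaster (adjusted p = 0.145). Droughtmaster replicate 2 carried much of this: without it the values were 0.802 (adjusted p = 0.298) and -0.959 (adjusted p = 0.323). Without Droughtmaster replicate 3 they were 1.32 (edgeR adjusted p = 0.195) and -1.45 (adjusted p = 0.217).

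CXCL8 had the widest range of the 4 genes that passed the filter on low counts. The Red Angus animals measured 32.7, 5.07, 1.38, 0.915, 43.5 and 0.880 CPM. The F1 animals measured 7.08, 0.0724, 1.85, 11.4, 18.05 and 13.5 CPM, where the value of replicate 2 is 1 count. The Droughtmaster animals measured 14.2, 28.0, 341, 14.2, 37.5 and 569 CPM. Droughtmaster replicates 3 and 6 stood far above the rest, Red Angus replicates 1 and 5 were as high as the other Droughtmaster animals, and the lowest Droughtmaster value of 14.2 CPM exceeded 5 of the 6 F1 values.

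Within breeds, log2 CPM of CXCL8 had a pooled SD of 2.45, above 99.8% of the 14446 features tested, whose median was 0.677. For IL1B the within-breed SD was 1.37, above 95.6% of features. It was 0.899 for TNF and 0.928 for IL10, above 73.7% and 76.0%. By this pooled SD, CXCL8 and IL1B were among the features that differed most between animals of 1 breed. The spread of IL1B was uneven: its SD was 1.86 among Droughtmaster animals, 1.31 among F1 animals and 0.712 among Red Angus animals. The pooled rank of IL1B therefore does not describe Red Angus. CXCL8 had SDs of 2.32, 2.53 and 2.49 for the same breeds.

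The log2 fold change of CXCL8 was 3.57 ± 1.197 for Droughtmaster against Red Angus (edgeR adjusted p = 0.105) and -4.27 ± 1.24 for F1 against Droughtmaster (adjusted p = 0.0908). Neither passed; both estimates and both standard errors were larger than those of IL1B. Without Droughtmaster replicate 6 they were 2.62 and -3.32. Without Droughtmaster replicate 3 they were 3.32 (edgeR adjusted p = 0.19) and -4.00 (adjusted p = 0.168). Without Red Angus replicate 5 the first was 4.36 (adjusted p = 0.051). DESeq2's Wald test called both (adjusted p = 0.0263 and 0.00722), in comparisons where it called 1037 and 622 of 14446 features.

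IL10, the anti-inflammatory member, followed the same breed order at low counts (6 to 180 per library). Red Angus replicates 1 to 6 measured 0.444, 1.75, 1.26, 1.71, 0.676 and 1.47 CPM. The F1 animals measured 0.438, 0.434, 0.401, 1.60, 2.84 and 0.977 CPM. The Droughtmaster animals measured 1.39, 6.44, 4.07, 1.63, 3.81 and 7.81 CPM. The same 4 Droughtmaster animals as for IL1B, replicates 2, 3, 5 and 6, lay above all Red Angus and F1 animals, and replicates 1 and 4 lay within the Red Angus range.

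The log2 fold change of IL10 was 1.78 ± 0.551 against Red Angus (edgeR adjusted p = 0.0798) and -1.91 ± 0.555 for F1 against Droughtmaster (adjusted p = 0.0908). Neither passed with all animals. The second passed without F1 replicate 5, the highest F1 animal (-2.38, adjusted p = 0.0449), and DESeq2's Wald test called both (adjusted p = 0.0194 and 0.0122). Of 14446 features, DESeq2 called 1037 and 622 in these comparisons. Without Droughtmaster replicate 3 the values were 1.86 (adjusted p = 0.114) and -1.95 (adjusted p = 0.133).

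**Figure D2:**
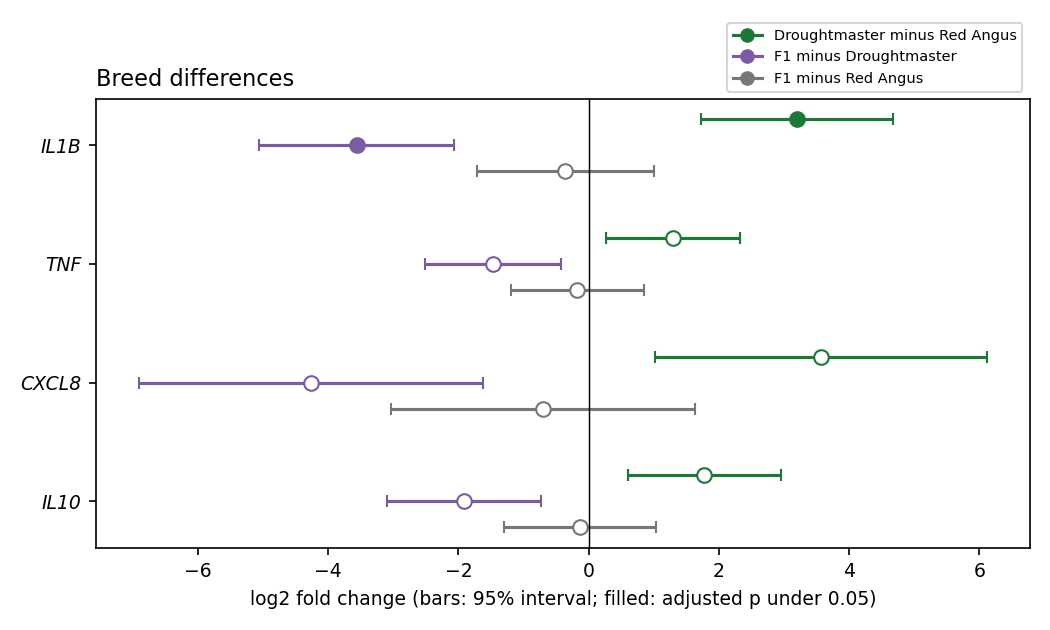
Log2 fold changes of the 4 tested cytokine genes in the 3 breed comparisons, with approximate 95% intervals; filled points have an adjusted p under 0.05. Only the 2 IL1B comparisons that involve Droughtmaster are filled, and all intervals of F1 minus Red Angus cross 0.

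IL6 was close to silent outside Droughtmaster and was too low for the filter, so it has no value in the test across features. It held 0 counts in all 6 F1 libraries and in 5 Red Angus libraries, with 4 counts in Red Angus replicate 3. In Droughtmaster replicates 1 to 6 it held 0, 2, 5, 1, 13 and 124 counts. Droughtmaster replicate 6 alone thus held 124 of the 149 IL6 counts of the study, and it was also the highest animal for IL1B, CXCL8 and IL10.

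Pooled over libraries, IL6 measured 1.44 CPM in Droughtmaster (95% Poisson interval 1.22 to 1.70) and 0.0339 CPM in Red Angus (0.00923 to 0.0868). These intervals cover counting error only. Set over a floor of 3 counts for the F1 group (0.0255 CPM), the pooled Droughtmaster level was 56.6-fold higher, and 10.6-fold higher without replicate 6. These folds are not lower bounds. The 95% Poisson interval reached up to 0.0313 CPM in the F1. It began at 1.22 CPM in Droughtmaster and at 0.168 CPM without replicate 6. The folds also leave out the spread between animals, and Droughtmaster replicate 1 held 0 counts like the F1. Libraries with any IL6 count numbered 5 of 6 in Droughtmaster, 1 of 6 in Red Angus and 0 of 6 in the F1. This did not pass after adjustment over 6 tests of detection, a test chosen after the values were seen (Fisher's exact test, two-sided, p = 0.0152 and adjusted p = 0.0909 for the F1 against Droughtmaster; p = 0.0801 and adjusted p = 0.24 for Droughtmaster against Red Angus). With no filter on low counts, edgeR gave an adjusted p of 0.0951 for Droughtmaster against Red Angus and 0.054 for F1 against Droughtmaster.

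IFNG was at the limit of detection in all breeds, with 21 counts over the 18 libraries and at most 6 in any. It had counts in 3 of 6 Red Angus, 4 of 6 F1 and 3 of 6 Droughtmaster libraries. Pooled over libraries it measured 0.0424 CPM for Red Angus (95% Poisson interval 0.0138 to 0.0989), 0.0425 for the F1 (0.0138 to 0.0991) and 0.109 for Droughtmaster (0.0546 to 0.196). A difference between breeds was not detectable at this depth (edgeR with no filter on low counts, adjusted p = 0.589 for Droughtmaster against Red Angus).

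The F1 animals were then compared with Red Angus and with the mean of both parental breeds. None of the 4 tested genes differed between F1 and Red Angus by edgeR's test (adjusted p = 1 for each after rounding), in a comparison where 0% of features passed and 3.23% had an unadjusted p under 0.05. DESeq2's Wald test called 1 feature, which was none of these genes. The log2 fold change was -0.36 for IL1B (95% interval -1.72 to 1.00), -0.17 for TNF (-1.19 to 0.85), -0.70 for CXCL8 (-3.04 to 1.64) and -0.14 for IL10 (-1.30 to 1.03). These intervals include 2-fold differences for IL1B, CXCL8 and IL10 in either direction, and for TNF as a lower level in the F1. All 4 estimates were below 0, but leaving out 1 animal turned the sign for TNF, CXCL8 and IL10. For CXCL8 the F1 median of 9.26 CPM was above the Red Angus median of 3.22, and the difference of mean log2 CPM was -0.10. For IL1B, TNF and IL10 the F1 median was the lower.

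Against the mid-parent value, midway between the log means of the parent breeds, the F1 estimates were -1.96 ± 0.608 for IL1B, -0.82 ± 0.430 for TNF, -2.48 ± 1.07 for CXCL8 and -1.02 ± 0.492 for IL10. None passed edgeR's test (adjusted p = 0.506, 0.904, 0.792 and 0.836), and 0% of features did. IL1B and CXCL8 had unadjusted p of 0.00424 and 0.031, where 5.97% of all features had an unadjusted p under 0.05. DESeq2's Wald test called 57 features in this comparison and none of the 4 genes (adjusted p = 0.0523 for IL1B).

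For comparison with all features, the median log2 fold change of the 4 tested genes was 2.49 for Droughtmaster against Red Angus, where that of all 14446 features was -0.0052. For F1 against Droughtmaster the medians were -2.74 and -0.0076, and for F1 against Red Angus -0.26 and -0.05. All 4 genes had an unadjusted p under 0.05 in both comparisons that involve Droughtmaster, against 19.8% and 14.1% of all features. These are not separate pieces of evidence. Droughtmaster replicates 3 and 6 were among the 3 highest animals for all 4 genes, and both comparisons use the same Droughtmaster libraries. The genes were also chosen with earlier results of these data known. IL6 and IFNG are not in these medians.

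**Figure D3:**
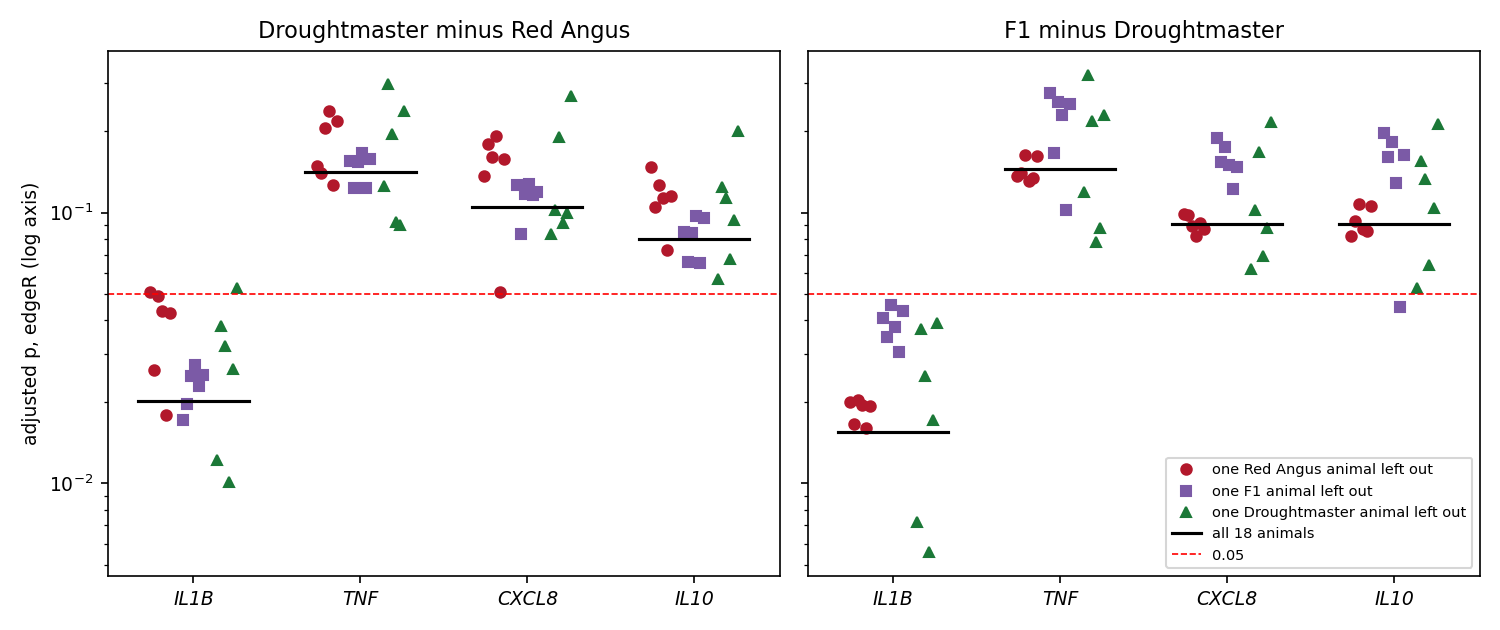
Adjusted p (edgeR, log axis) of the 4 tested genes when each animal is left out in turn, coloured by the breed of that animal; the black line is the value with all 18 animals and the dashed line is 0.05. For Droughtmaster against Red Angus, 2 of the 18 IL1B points lie above 0.05; for F1 against Droughtmaster none do.

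Whether the cytokine transcripts rise and fall together was examined across the 18 animals after the mean of each breed had been removed, so that a breed difference could not produce a correlation. A total of 14 relations were computed: 6 between the tested genes and 8 between each gene and the number of features detected or the total count. IL1B varied with TNF (Pearson r = 0.733, permutation p = 0.00497, adjusted p = 0.0348; Spearman rho = 0.740, permutation p = 0.0024, adjusted p = 0.0168; 18 animals). It also varied with IL10 (r = 0.716, permutation p = 0.00309, adjusted p = 0.0348; rho = 0.777, permutation p = 0.0013, adjusted p = 0.0168).

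With breed means removed, the 2 animals farthest from the median in IL1B were F1 replicate 1 and Droughtmaster replicate 4. The animals with the highest IL1B, Droughtmaster replicates 6 and 2, were thus kept in this check. Without F1 replicate 1 and Droughtmaster replicate 4, r was 0.642 with TNF (permutation p = 0.0327) and 0.666 with IL10 (permutation p = 0.00792). Neither passed after adjustment over the 14 relations (adjusted p = 0.229 and 0.111). Leaving out 1 animal kept r with TNF between 0.660 and 0.787, and the adjusted p was under 0.05 in 10 of 18 cases. With IL10, r stayed between 0.670 and 0.813 and passed in 12 of 18 cases. The size of both correlations moved little, but the call depended on single animals of each breed: it was lost for both genes without Red Angus replicate 2, F1 replicates 3 and 5, and Droughtmaster replicates 2, 4 and 6, and for TNF also without F1 replicates 1 and 2. Without Droughtmaster replicate 3 the values were 0.731 and 0.715 (adjusted p = 0.0483 for both).

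No relation of CXCL8 to the other genes passed. Its r was 0.276 with IL1B, 0.230 with TNF and 0.279 with IL10 (permutation p = 0.286, 0.38 and 0.293; adjusted p = 0.456, 0.533 and 0.456; rho 0.348, 0.238 and 0.263, with permutation p = 0.171, 0.363 and 0.311). Leaving out 1 animal moved these r between 0.137 and 0.468, between 0.147 and 0.396, and between 0.171 and 0.440, and none passed. F1 replicate 2 had 1 count of CXCL8 beside 30.7 CPM of IL1B, the second highest F1 value, and without it r was 0.468 with IL1B, 0.396 with TNF and 0.175 with IL10. The lowest r with IL1B and with IL10 came without Droughtmaster replicate 6 and the lowest with TNF without Droughtmaster replicate 4; the highest with IL10 came without Red Angus replicate 1. Without Droughtmaster replicate 4 r was 0.182 with IL1B, and without Droughtmaster replicate 2 it was 0.363 with TNF. TNF and IL10 had r = 0.488 (permutation p = 0.0656, adjusted p = 0.23; rho 0.488, permutation p = 0.0663).

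**Figure D4:**
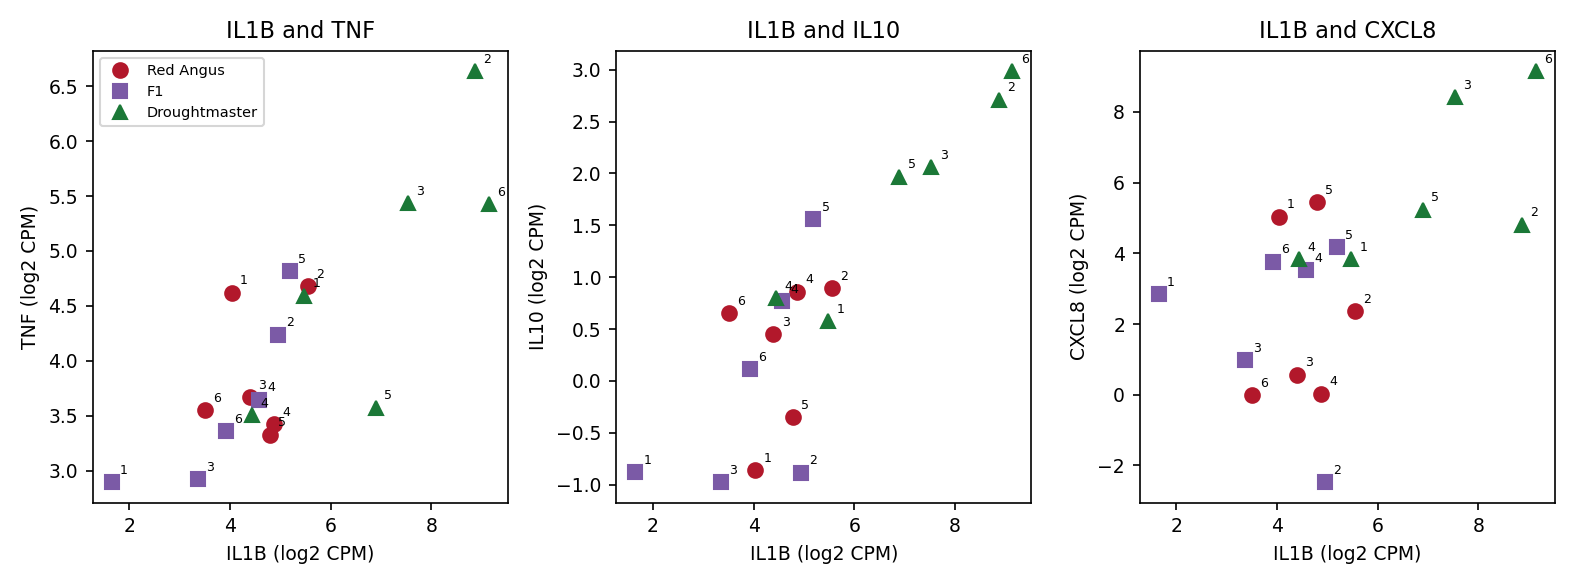
Log2 CPM (TMM-scaled, prior count 2) of TNF, IL10 and CXCL8 against IL1B, 1 point per animal with its replicate number, coloured by breed. Droughtmaster replicates 2, 3, 5 and 6 extend the range of IL1B and IL10 together, while CXCL8 spreads widely at middle levels of IL1B.

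Within single breeds of 6 animals the picture was uneven. In Droughtmaster, IL1B and IL10 had r = 0.963 (exact permutation p = 0.0111; rho = 0.943), and all 6 pairs of genes had a positive r, from 0.395 to 0.963. In the F1, IL1B and TNF had r = 0.846 (exact permutation p = 0.0278) and the animals stood in the same order for both genes (rho = 1, exact permutation p = 0.00278). In Red Angus r was 0.238 for IL1B with TNF and 0.319 for IL1B with IL10, and CXCL8 ran against IL10 (r = -0.845, exact permutation p = 0.0528). No r within a breed passed after adjustment over the 18 values (smallest adjusted p = 0.2), and differences in r between breeds were not tested.

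**Figure D5:**
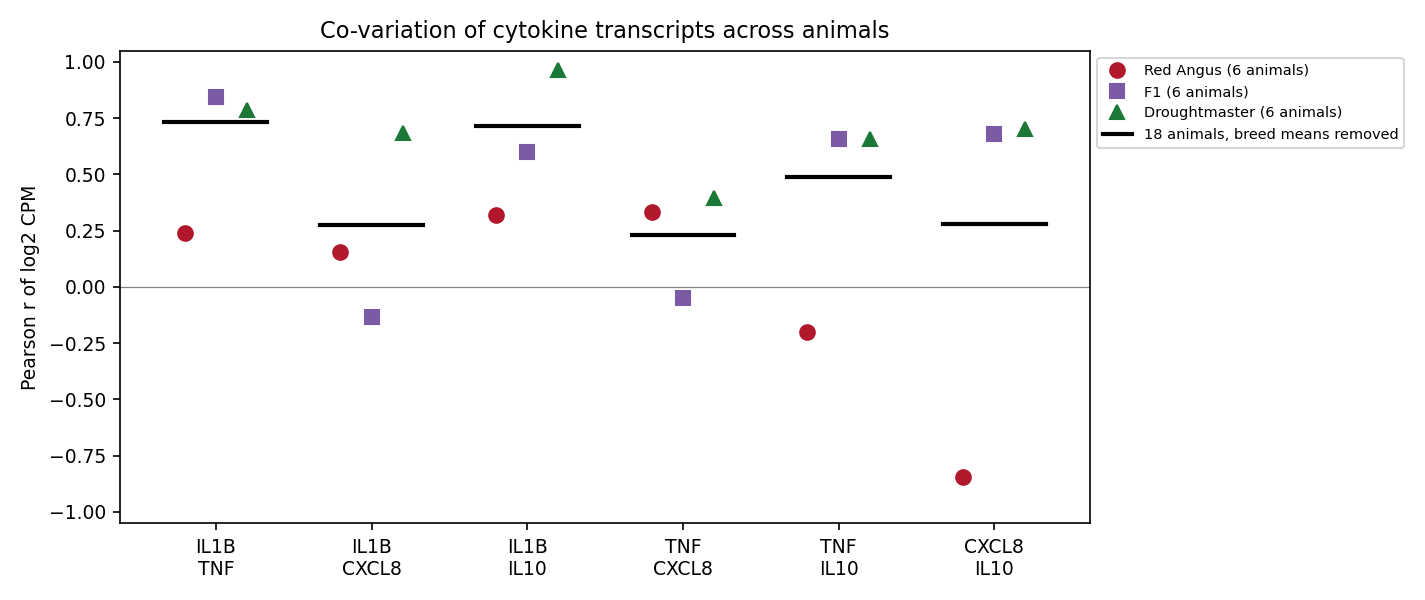
Pearson r of log2 CPM for the 6 pairs of tested genes. Symbols give r within each breed (6 animals each) and black lines give r over 18 animals after removal of breed means; the lines for IL1B with TNF and IL1B with IL10 are the highest, at 0.733 and 0.716.

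Of the library measures, CXCL8 had the strongest relation to the number of features detected (r = 0.606, permutation p = 0.0169, adjusted p = 0.0787; rho = 0.525, permutation p = 0.0363), and r was 0.253 without F1 replicate 2 and Droughtmaster replicate 6, the animals farthest from the median in CXCL8. Without Droughtmaster replicate 3 the relation passed (r = 0.711, permutation p = 0.00743, adjusted p = 0.0483). F1 replicate 2 and Droughtmaster replicate 6 had 15507 and 19605 features detected, the lowest and the highest of the study. The part of this measure in the CXCL8 values was not tested. TNF had r = -0.319 with features detected (permutation p = 0.195) and -0.458 with the total count (permutation p = 0.0864, adjusted p = 0.242). Without Red Angus replicate 2 the latter was -0.597 (permutation p = 0.0255, adjusted p = 0.0892). For IL10 the values were 0.118 and 0.038 (permutation p = 0.666 and 0.890). The part of the total count in the correlation of IL1B with TNF was not tested. The r of IL1B with features detected was -0.0645 (permutation p = 0.792; rho = -0.108, permutation p = 0.674) and with the total count -0.358 (permutation p = 0.206; rho = -0.185, permutation p = 0.486).

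The balance between the genes inside each library was compared as a ratio of counts, which does not depend on the scaling of libraries. These ratios mix the lengths of the transcripts and are used only between animals, and they were chosen after the values were seen. The ratio of IL1B to TNF counts spanned 0.413 to 1.91 among F1 animals (median 1.42), 0.665 to 2.77 among Red Angus (median 1.75) and 1.85 to 13.2 among Droughtmaster (median 4.49). The mean log2 ratio was 2.20 ± 1.18 for Droughtmaster, 0.65 ± 0.82 for Red Angus and 0.29 ± 0.79 for the F1 (SD over 6 animals). The F1 ratio was lower than that of Droughtmaster (difference -1.91, exact permutation p = 0.00433, adjusted p = 0.039 over 9 tests; 0.0974 without F1 replicates 1, 3, 4, 5 or 6 and 0.0649 without F1 replicate 2). Between Droughtmaster and Red Angus the difference of 1.55 did not pass (exact permutation p = 0.0216, adjusted p = 0.0974), but did without Droughtmaster replicate 1 or 4 (1.81 and 1.80, adjusted p = 0.039 for each).

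The ratio of IL1B to IL10 differed by 0.887 on the log2 scale between Droughtmaster and Red Angus (exact permutation p = 0.126, adjusted p = 0.282), with medians of 38.7, 21.9 and 15.1 in Droughtmaster, Red Angus and the F1. The ratio of CXCL8 to IL1B ranged from 0.00236 to 2.34 among F1 animals, 0.0314 to 2.01 among Red Angus and 0.06 to 1.84 among Droughtmaster, with no comparison of breeds past the test (smallest adjusted p = 0.655). CXCL8 thus varied relative to IL1B by wide factors inside each breed.

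Among 9671 other Ensembl features with a mean of at least 5 CPM, those with the highest mean r to the 4 tested genes across the 18 animals (breed means removed) were ENSBTAG00000019123 (0.656) and ENSBTAG00000050334 (0.652). The first averaged 3.45 ± 2.60 CPM for Red Angus, 2.64 ± 0.778 for the F1 and 57.4 ± 55.0 for Droughtmaster (SD over 6 animals). The second averaged 11.96 ± 5.98, 15.6 ± 6.95 and 50.01 ± 31.6 CPM in the same order. The most negative were ENSBTAG00000000356 (-0.582) and ENSBTAG00000014159 (-0.581). The median feature had a mean r of -0.0173. The named features were picked as the extremes of the 9671 on the same 18 animals, so their distance from this median tests nothing.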

How the data were processed

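The deposited file holds raw counts per feature, as the authors made them, with 1 column per animal. HISAT2 2.0.5, featureCounts 1.5.0-p3, DESeq2 1.16.1 and the genome build ARS-UCD1.2 are named per the submitters' processing notes; whether counting used strand is not given in the sources used here, and antisense reads may be included. All 18 columns matched a sample by title. Whether same-breed animals are related is not stated. The tests set breed differences against the spread between these animals and treat the animals as independent, which could not be checked.

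Cytokine genes were found by the 6 identifiers, with the symbols that the list of members gave; 0 of 27607 Ensembl identifiers matched the RefSeq name table (ARS-UCD2.0), so gene lists and cell type markers fixed by symbol could not be used and no sequence is shown. Members and lists were chosen with earlier results of these data known. The rule for named genes was all 6 cytokine genes, plus the 2 Ensembl identifiers with the highest and the 2 with the lowest mean correlation to those tested.

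Counts were filtered with filterByExpr by breed (minimum count 10), which left 14446 features and 4 of the 6 genes, scaled by TMM and fitted over all 18 libraries with edgeR 4.0.16 in R 4.3.3 (quasi-likelihood F test, robust, two-sided, Benjamini-Hochberg, threshold 0.05). Standard errors come from the F statistic, and 95% intervals use 15 residual degrees of freedom. Log2 CPM uses a prior count of 2. Correlations were tested with 100000 permutations of animals within breeds. Only edgeR's test and the permutation test of correlations within breeds were tried on simulated data. DESeq2's Wald test, Fisher's exact test and the exact permutation tests were not. Alternatives were DESeq2 1.42.0, RLE scaling, no filter, fits of 2 groups, a prior count of 0.5, no centring within breed, and leaving out each animal; removal of the dominant feature, the detection tests and the count ratios (pseudocount 0.5) were added after seeing the data.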

Additional observations from a re-analysis of the deposited data

Results flagged for a closer look

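IL6 in Red Angus stood out in 1 of 17 sets of 6 animals examined for a sample far from the others on the log2 CPM scale. Replicate 3 held 4 counts (0.239 CPM) and the other Red Angus libraries held 0, so the gap to the next animal was 1 times the whole range, above Dixon's 95% critical value for 6 samples. With every other library at 0, any single library with a count gives this value, so the usual chance rate of about 1 in 20 groups does not apply and the result says only that IL6 was detected in 1 Red Angus library.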

How the results depend on the processing

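DESeq2's Wald test called 3 of the cytokine genes for Droughtmaster against Red Angus, adding CXCL8 (log2 fold change 3.61) and IL10 (1.78), and 4 for F1 against Droughtmaster, adding TNF (-1.49), CXCL8 (-4.31) and IL10 (-1.95), where edgeR called 1 in each. When the F1 libraries were left out of the model, 0 were called and IL1B was at 3.21. Leaving out each animal gave 0 to 1 calls for Droughtmaster against Red Angus (IL1B 2.72 to 3.47) and 1 to 2 for F1 against Droughtmaster (IL10 -2.38 to -1.63). The sign turned among these fits for F1 against Red Angus in TNF (-0.437 to 0.0162), CXCL8 (-1.01 to 0.095) and IL10 (-0.596 to 0.0419). RLE scaling, no filter and removal of the dominant feature changed no call of the 4 genes. Over all features, Droughtmaster against Red Angus gave 376 calls, 56 without the F1 libraries, 236 with no filter and 1037 by DESeq2; F1 against Droughtmaster gave 171 and 622 by DESeq2; F1 against the mid-parent gave 0 and 57 by DESeq2. Without single animals the first count was 149 and 143 (Droughtmaster replicates 3 and 6), 241 and 249 (F1 replicates 3 and 4), and 160, 226, 166, 158 and 1407 (Red Angus replicates 1 to 5). The second was 335, 101, 276 and 84 (Droughtmaster replicates 1, 2, 4 and 6) and 65, 98, 92, 91 and 99 (F1 replicates 1, 2, 3, 4 and 6). The cause was not tested.

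Without the 2 animals farthest from the median of IL1B after breed means were removed, its r fell to 0.642 with TNF and 0.666 with IL10. Neither was still past adjustment. With single animals left out, these ranged over 0.660 to 0.787 and 0.670 to 0.813. A prior count of 0.5 and RLE scaling changed no call of a correlation. Without centring within breed, more relations passed: IL1B with CXCL8 (0.594), TNF with IL10 (0.672), CXCL8 with IL10 (0.584), TNF with the total count (-0.540) and CXCL8 with features detected (0.546); those values include the breed differences. The sign turned without centring for IL1B with features detected (0.0381), CXCL8 with the total count (-0.138) and IL10 with the total count (-0.257). With single animals left out the ranges were -0.296 to 0.0745 for IL1B with features detected, 0.425 to 0.711 for CXCL8 with features detected (passing only without Droughtmaster replicate 3), -0.0436 to 0.244 for IL10 with features detected and -0.061 to 0.239 for IL10 with the total count. Among the count ratios the sign turned for F1 against Red Angus in IL1B to IL10 (-0.606 to 0.0532) and CXCL8 to IL1B (-0.221 to 1.65), and for F1 against Droughtmaster in CXCL8 to IL1B (-1.38 to 0.495). No paired analysis was possible because replicate numbers were given in accession order and pair no animals. Depth limits IL6 and IFNG, at 149 and 21 counts in all.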
